A study of Homo sapiens with 4 samples.

Results

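The mRNAs of 49 chromatin remodelers and histone modifiers were examined as targets of the RNA-binding protein IGF2BP3 in OE-19 cells. The 49 genes were taken from a named list, which was drawn up with earlier results of these data known. A peak was given to a gene when its summit lay in a GENCODE release 44 exon of that gene. The members were 49 of 19688 protein-coding genes with a canonical coding mRNA. Their exons held 832 of the 42720 exonic peaks in replicate 1 and 826 of the 41066 in replicate 2, which was 1.98% ± 0.0451 (SD, n = 2). OE-19 is an established human line derived from an adenocarcinoma at the esophagogastric junction (AEG). RNA immunoprecipitation followed by sequencing (RIP-seq) pulls a protein out of a lysate and sequences the RNA that comes with it. The series had 4 samples, 2 pulled down with an antibody to IGF2BP3 and 2 of input RNA. All were OE-19 cells grown in the same medium, with no genotype change or drug treatment named in the labels, which do mention UV fixation of the cells. Peak lists of the 2 RIP replicates were used, and the input samples were not analysed here. The study calls the RIP replicates biological, and the sources do not say how they were grown apart.

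IGF2BP3 belongs to a family of cytoplasmic RNA-binding proteins that stabilise bound mRNAs, and it is known as a reader of N6-methyladenosine (m6A), a mark often laid down at GGAC. Chromatin remodelers use ATP to slide, evict or exchange nucleosomes, and they work in large complexes built around a SNF2-type ATPase. Histone modifiers add or remove methyl and acetyl groups on histone tails. Both classes include very large proteins encoded by long, many-exon mRNAs, and several of them are recurrently mutated in cancers of the esophagus and stomach.

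Each peak carried a fold enrichment, which is the ratio of RIP signal to the local background at the summit as the peak caller of the authors gave it, and a q, which is its p-value after correction for multiple testing. The lists went down to an uncorrected p of 0.01. Of the member peaks, 50% in replicate 1 and 54.2% in replicate 2 had a q of 1, against 60.8% and 65.7% of exonic peaks on all protein-coding genes. Peaks of a q of at most 0.05 were therefore counted beside all peaks. A peak was called shared when it overlapped a peak of the other replicate by at least 1 bp. Peaks record RIP signal over background and not mRNA abundance, and the abundance of these mRNAs was not measured here. Fewer peaks on an mRNA and a lower amount of that mRNA cannot be told apart from these lists.

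The strongest coding sites seen in both replicates show what these peaks cover. They are the overlaps of a replicate 1 and a replicate 2 peak with the highest lower fold in each mRNA, 1 per member, chosen among those that lay within a coding exon and spanned 30 to 300 bases. The letters are those of the hg38 mRNA strand, 5′ to 3′, and capitals mark each GGAC.

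KMT2A exon 35: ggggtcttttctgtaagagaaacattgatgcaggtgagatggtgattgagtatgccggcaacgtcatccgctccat
KMT2C exon 37: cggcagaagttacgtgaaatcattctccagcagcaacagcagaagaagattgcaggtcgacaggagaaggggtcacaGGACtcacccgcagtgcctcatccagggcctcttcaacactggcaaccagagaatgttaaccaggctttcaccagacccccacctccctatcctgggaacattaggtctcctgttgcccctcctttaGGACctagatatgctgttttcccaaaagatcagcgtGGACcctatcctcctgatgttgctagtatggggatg
KMT2E exon 23: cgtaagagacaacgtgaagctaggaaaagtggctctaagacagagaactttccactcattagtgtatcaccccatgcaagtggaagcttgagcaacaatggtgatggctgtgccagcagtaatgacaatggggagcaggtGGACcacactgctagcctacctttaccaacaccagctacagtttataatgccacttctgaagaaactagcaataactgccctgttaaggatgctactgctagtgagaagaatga
CREBBP exon 20: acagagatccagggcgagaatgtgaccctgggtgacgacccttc
ASXL2 exon 8: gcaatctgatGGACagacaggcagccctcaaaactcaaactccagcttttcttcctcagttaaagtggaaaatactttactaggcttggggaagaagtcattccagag
KMT2D exon 32: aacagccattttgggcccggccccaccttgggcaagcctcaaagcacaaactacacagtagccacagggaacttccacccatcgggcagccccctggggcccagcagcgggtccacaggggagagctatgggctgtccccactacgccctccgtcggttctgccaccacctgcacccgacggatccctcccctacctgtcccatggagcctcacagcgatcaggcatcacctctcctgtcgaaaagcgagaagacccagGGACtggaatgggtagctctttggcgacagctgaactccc
SMARCC1 exon 27: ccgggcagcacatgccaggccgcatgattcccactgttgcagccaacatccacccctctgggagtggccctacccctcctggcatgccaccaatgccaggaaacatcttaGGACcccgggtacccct
SRCAP exon 21: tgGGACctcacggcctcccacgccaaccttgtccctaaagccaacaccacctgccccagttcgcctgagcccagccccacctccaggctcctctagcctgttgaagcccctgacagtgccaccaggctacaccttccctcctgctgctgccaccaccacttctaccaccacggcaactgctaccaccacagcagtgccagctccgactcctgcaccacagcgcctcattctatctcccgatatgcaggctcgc

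All 8 stretches were coding sequence of the canonical mRNA, and all had a q of at most 0.05 in both replicates. KMT2A exon 35 (chr11:118521305-118521380, plus strand) held codons 3844 to 3869 of 3972, within the part of the mRNA that encodes the catalytic SET domain. The 2 summits there were 8 nt apart, with folds of 7.46 and 6.07. The KMT2C stretch (chr7:152179851-152180126, minus strand) held codons 2384 to 2475 of 4911 and 3 copies of GGAC, with folds of 6.06 and 7.30. In KMT2E (chr7:105108960-105109213, plus strand) the summits were 3 nt apart and the folds were 6.27 and 5.80. The CREBBP stretch (chr16:3751738-3751781, minus strand) was 44 nt long, held no GGAC and had folds of 7.95 and 5.59. These 4 sites were among the highest in both lists, with summits that fell within 25 nt of each other.

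The other 4 stretches had folds between 4.45 and 5.83. ASXL2 exon 8 (chr2:25767603-25767710, minus strand) had folds of 5.40 and 5.54. KMT2D exon 32 (chr12:49039785-49040083, minus strand) had folds of 5.83 and 5.29, but its replicate 2 peak had its summit 414 nt away, outside the stretch shown. SMARCC1 exon 27 (chr3:47590681-47590807, minus strand) had folds of 5.03 and 5.52. SRCAP exon 21 (chr16:30721217-30721469, plus strand) had folds of 4.45 and 4.68. GGAC was present in 6 of the 8 stretches and absent from those of KMT2A and CREBBP, which were the shortest shown. The stretches differed in length, and the share expected to hold GGAC at these lengths was not worked out. The count therefore does not show that GGAC is more frequent at these sites than elsewhere in the CDS. Windows of equal length are compared further below.

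Peaks were found on nearly all of these mRNAs. Since the members were chosen with earlier results of these data known, comparisons with other genes here and below are descriptions and not tests. An exonic peak was present in both replicates in 44 of the 49 members, against a background of 28.1% of all protein-coding genes and 47.1% of the 9093 genes whose mRNAs fell in the members' length range of 3128 to 20635 nt. A peak with a q of at most 0.05 was present in both replicates in 23 members, against 4.98% of all protein-coding genes and 9.66% of those in the length range. The members' mRNAs had a median length of 8485 nt, against 2900 nt over all protein-coding genes. The length range is wide, and the genes in it were not matched to the members in length. No exonic peak was found in either replicate on ARID2, CHD4 or SMARCA1. SMARCA5 had 1 and 0 peaks and ARID4A had 2 and 0 in replicates 1 and 2.

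Density and strength were read among genes with a peak in both replicates. The members had a median of 2.10 ± 0.00955 peaks per kb of mRNA (SD, n = 2), and all such genes had 1.15 ± 0.0426. The median highest fold of a gene was 4.85 ± 0.0295 in members and 3.58 ± 0.0911 in all 5523 such genes. The members had a median of 17.5 and 16.5 peaks to take it from, and all such genes had 5 and 5. Over single peaks the difference was smaller. The median fold of a peak was 3.17 ± 0.0313 on members and 2.94 ± 0.0127 on all protein-coding genes. The highest fold was taken in each replicate alone, here and below, so the 2 values of a gene can come from different sites. Of the 44 members, 35 had more peaks per kb than the median of targets in the same length range, and 34 had a higher top fold. Lengths were not matched within that range. The median mRNA was 8549 nt in these members and 4642 nt over all 5523 genes with a peak in both replicates. Shared peaks made up 74.8% and 77.0% of member peaks, and 61.0% and 64.8% of exonic peaks on all protein-coding genes. Over the members, the peak count of replicate 1 went with that of replicate 2 (Pearson's r = 0.979, Spearman's rho = 0.985, n = 49 mRNAs). These points share the 2 libraries and mRNA length, and mRNA length itself went with the peak count at r = 0.723.

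The share of each coding sequence (CDS) under a peak spread the members over almost the whole possible range. This measure was added after the values had been seen, and it counts peaks of any q. More than 75% of the CDS was covered in both replicates in 7 of the 49 members (14.3%), against 3.73% of all genes with a peak in both. More than 50% was covered in both in 18 members (36.7%), against 13.6% of those genes. The members' shares are over all 49, including those without a peak in both replicates. Less than 20% was covered in both in 16 members. That count was not made over all genes with a peak in both, whose median covered shares were 22.4% and 20.5%. Across the members the covered share went with mRNA length (r = 0.536, rho = 0.544, n = 49 mRNAs), and the members' mRNAs were longer than most. The highest were ARID1A with 95.6% and 95.3%, ASXL2 with 96.8% and 92.7%, KMT2E with 92.7% and 89.2% and EP300 with 84.7% and 86.6%. At the other end, CHD4, ARID2 and SMARCA1 had 0% in both. The values of the replicates went together (r = 0.983, rho = 0.975, n = 49 mRNAs).

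**Figure D1:**
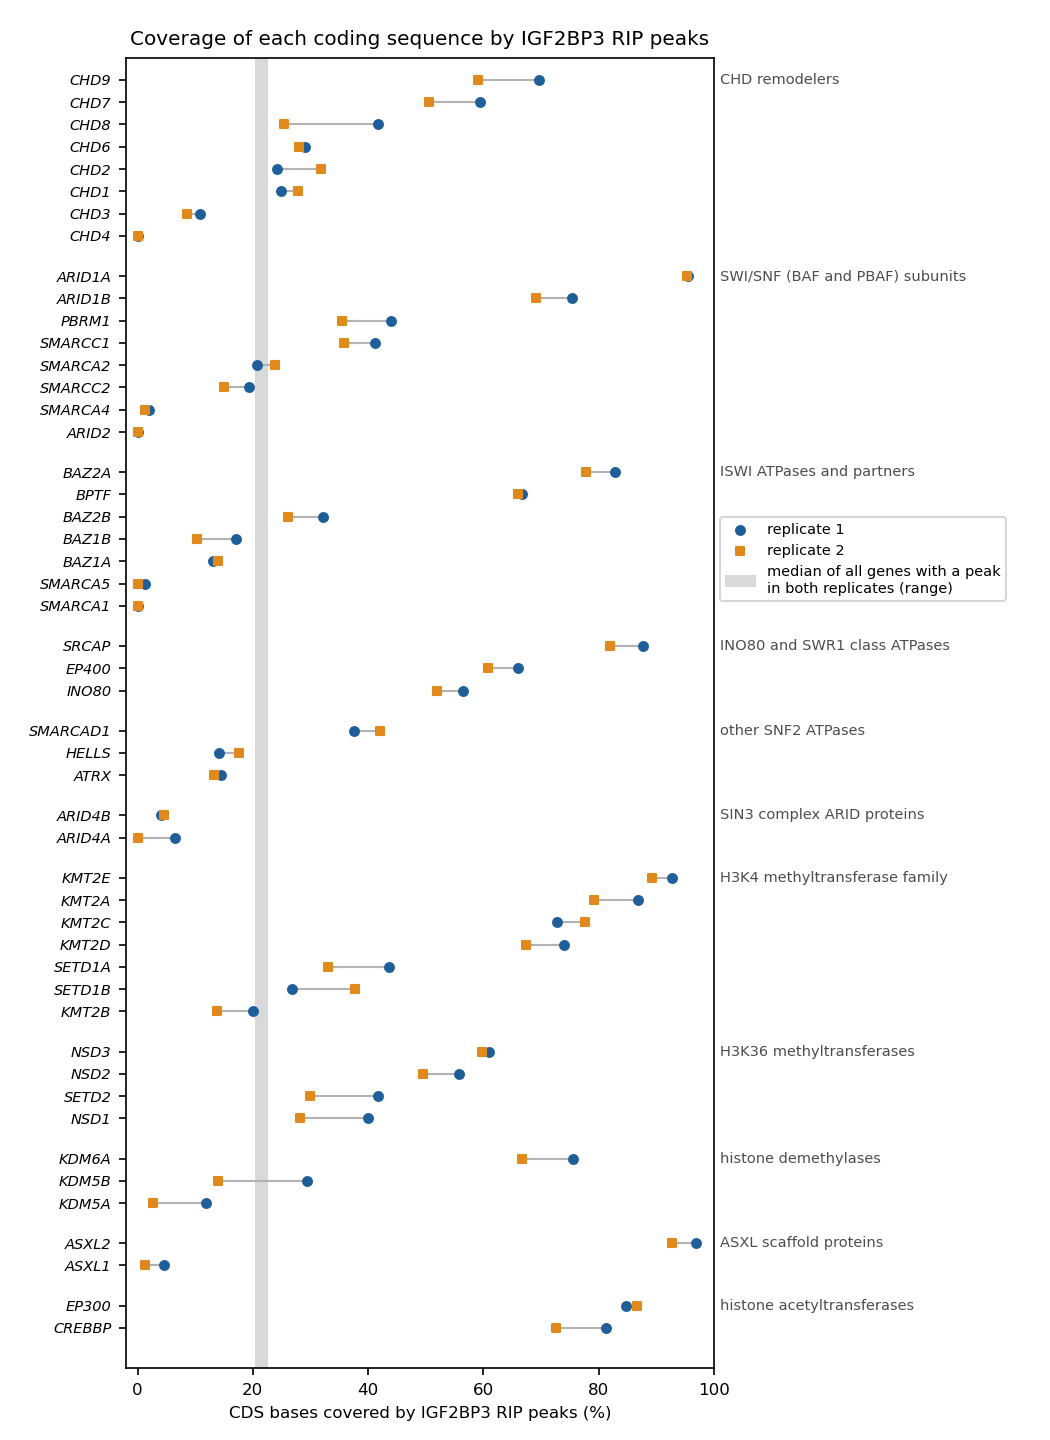
Share of CDS bases under an IGF2BP3 RIP peak for each of the 49 members, by family, with a circle for replicate 1 and a square for replicate 2. The grey band spans the medians of all genes with a peak in both replicates (22.4% and 20.5%). ARID1A, ASXL2 and KMT2E lie at the right edge, and CHD4, ARID2 and SMARCA1 at 0%.

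The CHD proteins are ATPases with paired chromodomains. Their 8 mRNAs held 141 and 130 peaks, and 7 of the 8 had a peak in both replicates. CHD9 had 34 and 31 exonic peaks, 13 and 5 of them with a q of at most 0.05, and its highest folds were 5.54 and 4.90. Its strongest shared site, in exon 2, reached folds of 5.26 and 4.90. CHD7, mutated in CHARGE syndrome, followed with 30 and 23 peaks and highest folds of 5.41 and 5.27. It too had its significant shared peak in exon 2, with folds of 4.08 and 5.27 and summits 4 nt apart. CHD6 had 20 and 23 peaks, CHD8, a regulator of beta-catenin targets, 20 and 16, CHD1 15 and 15, and CHD2 14 and 15.

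The ATPases of the NuRD deacetylase complex stood at the low end of the family. CHD3 had 8 and 7 peaks, none with a q of at most 0.05, over 10.8% and 8.60% of its CDS. CHD4 had 0 and 0 peaks on an mRNA with 39 coding exons. In CHD9, 69.7% and 59.1% of the CDS lay under a peak, so the family ran from uncovered to mostly covered.

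SWI/SNF complexes, known as BAF and PBAF, combine an ATPase (SMARCA2 or SMARCA4) with core scaffold and ARID-domain subunits. Their 8 mRNAs held 92 and 91 peaks. ARID1A, the subunit most often mutated in cancer, had 17 and 19 peaks, of which 8 and 5 had a q of at most 0.05. Its highest folds, 10.8 and 8.67 (mean 9.72 ± 1.49, SD, n = 2), were the highest of any member in both replicates, but lay at different sites. The 10.8 was in exon 2, where the replicate 2 peak had a fold of 3.17. The 8.67 was in exon 4, where the replicate 1 peak had a fold of 5.98. The highest fold on any protein-coding gene was 11.7 in replicate 1 and 10.2 in replicate 2. ARID1B, the mutually exclusive paralog of ARID1A, had 24 and 23 peaks and highest folds of 8.05 and 6.996. The 8.05 was in exon 12, where the replicate 2 peak had a fold of 3.95. Every one of the 20 coding exons of ARID1B held a summit in both replicates. Its exon 14 was the strongest shared site of all members, with folds of 7.60 and 6.996. Both ARID1 mRNAs thus had strong peaks in each library, in contrast to ARID2, the PBAF counterpart, which had 0 and 0 peaks.

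Among the remaining subunits, PBRM1, the PBAF bromodomain protein, had 18 and 16 peaks, and SMARCC1, a core scaffold, had 15 and 13. SMARCC1 reached highest folds of 5.69 and 5.52. SMARCC2 had 5 and 5 peaks. The ATPase SMARCA2 had 12 and 13 peaks with highest folds of 4.57 and 5.06, whereas its paralog SMARCA4 had 1 and 2, all with a q of 1. The values of SMARCA2 and SMARCA4 did not overlap across replicates, and neither did those of the SMARCC pair.

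The ISWI ATPases SMARCA5 and SMARCA1 carried almost no peaks, while some of the large subunits that partner them were densely covered. SMARCA1 had 0 and 0 peaks, and the single SMARCA5 peak, in replicate 1, had a fold of 3.67 and a q of 0.483. BPTF, the NURF subunit that reads methylated H3K4, had 30 and 31 peaks, highest folds of 7.33 and 6.75, and summits of both replicates in 25 of its 28 coding exons. Its strongest shared site, in exon 27 near the stop codon, had folds of 5.21 and 5.02 and summits 2 nt apart. BAZ2A, a subunit of the NoRC complex that silences ribosomal genes, had 28 and 26 peaks (3.02 ± 0.158 per kb, SD, n = 2) over 82.9% and 77.8% of its CDS. Its highest folds were 5.40 and 4.84, both in exon 20. BAZ2B had 15 and 17 peaks, BAZ1B 9 and 6, and BAZ1A 6 and 6, none of them with a q of at most 0.05 in either replicate.

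INO80, EP400 and SRCAP are the split-ATPase remodelers that handle the histone variant H2A.Z. All 3 had peaks with a q of at most 0.05 in both replicates, and together they held 93 and 98 peaks on 30.4 kb of mRNA. INO80 was the densest member, with 27 and 24 peaks or 4.24 and 3.77 per kb (4.01 ± 0.333, SD, n = 2). Its highest folds were 4.56 and 5.02, at a site in exon 32 with summits 11 nt apart. EP400 had 41 and 46 peaks, 3.34 and 3.74 per kb, and highest folds of 5.47 and 5.27. Its strongest shared site, in exon 45, had folds of 4.995 and 4.32. SRCAP had fewer but stronger peaks, 25 and 28 with highest folds of 7.34 and 6.12, and these covered 87.6% and 81.9% of its CDS. A partial copy of EP400, EP400P1, held 0 and 2 peaks, and a partial copy of KMT2C, BAGE2, held 0 and 0. Reads that fit both copies cannot be assigned from these lists.

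The other SNF2 ATPases had mostly weak peaks. ATRX, which deposits H3.3 with DAXX, had 14 and 15 peaks and highest folds of 4.06 and 3.51. SMARCAD1 had 13 and 12 and HELLS, a DNA methylation cofactor, had 8 and 8. A peak with a q of at most 0.05 was found only in ATRX, in replicate 1 alone. The ARID proteins of the SIN3 deacetylase complex were lower still. ARID4B had 3 and 3 peaks, and ARID4A had 2 in replicate 1, with a highest fold of 2.29 and a q of 1, and 0 in replicate 2. No ARID4A or ARID4B peak was shared.

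The H3K4 methyltransferase family held the largest number of peaks, 177 and 191, and all 7 mRNAs had a peak in both replicates. KMT2C (MLL3) had 50 and 51 exonic peaks, more than any other member, 15 and 16 of them with a q of at most 0.05. Its highest folds were 6.72 and 7.30, and its density was 2.97 and 3.02 per kb (2.995 ± 0.0419, SD, n = 2). KMT2D (MLL2, also called MLL4), the other H3K4 monomethyltransferase of enhancers, had 35 and 42 peaks with highest folds of 6.59 and 5.72. Its strongest shared site, in exon 48, had folds of 5.78 and 5.51. KMT2A (MLL1), the gene broken by leukemia translocations, had 35 and 40 peaks and highest folds of 7.46 and 7.36. All 3 mRNAs were high in both libraries.

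KMT2E, a family member with little or no methyltransferase activity of its own, had 22 and 23 peaks and highest folds of 8.07 and 6.57. With 10 and 9 peaks of a q of at most 0.05, 58.9% and 51.1% of its CDS lay under such peaks, the largest share of any member by the mean of the replicates. The remaining members were lower. KMT2B had 13 and 11 peaks, SETD1A 11 and 13, and SETD1B 11 and 11. Of these, only SETD1A had a peak with a q of at most 0.05, in replicate 1.

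All 4 H3K36 methyltransferases had peaks in both replicates, 86 and 84 in total. NSD3 had 29 and 23 peaks with highest folds of 6.49 and 5.02, and NSD2, overexpressed by a myeloma translocation, had 19 and 22 with highest folds of 7.29 and 5.98. SETD2, the enzyme that trimethylates H3K36, had 19 and 19 with highest folds of 4.995 and 5.42. NSD1, mutated in Sotos syndrome, had 19 and 20, and its 2 peaks with a q of at most 0.05 were both in replicate 1. NSD2, NSD3 and SETD2 each had such peaks in both replicates, as did PBRM1 and SMARCA2, but in these 5 mRNAs no pair of overlapping peaks had a q of at most 0.05 on both sides.

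Of the histone demethylases, KDM6A (UTX), which removes H3K27 methylation, was far denser than the H3K4 demethylases. It had 23 and 22 peaks, 3.77 and 3.61 per kb (3.69 ± 0.116, SD, n = 2), and highest folds of 4.995 and 4.43. Exon 20 held its strongest shared site, with folds of 4.58 and 4.43. KDM5B had 12 and 9 peaks and KDM5A had 4 and 2. None of the KDM5 peaks had a q of at most 0.05.

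The ASXL proteins are scaffolds of the BAP1 deubiquitinase that acts on H2A. ASXL2 had 14 and 14 peaks with highest folds of 9.95 and 5.54 (7.74 ± 3.12, SD, n = 2), the widest gap between replicates among the 6 strongest members. The replicate 1 maximum lay in exon 7, where replicate 2 had a fold of 5.27 with its summit 1 nt away. ASXL1 had 1 and 1 peak, at different positions and with a q of 1.

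The acetyltransferases EP300 (p300) and CREBBP (CBP), coactivators that acetylate H3K27, had 60 and 60 peaks between them. EP300 had 30 and 28, or 3.42 and 3.19 per kb, with highest folds of 8.99 and 7.31. The 8.99 was in exon 14, where the overlapping replicate 2 peak had a fold of 3.43. CREBBP had 30 and 32 peaks and highest folds of 7.95 and 5.92. In replicate 1 CREBBP had more peaks with a q of at most 0.05 than any other member, 16 against the 15 of KMT2C. Summits of both replicates lay in 27 of the 31 coding exons of EP300 and in 28 of the 31 of CREBBP. The strongest shared site of EP300 was in its last exon, 31, with folds of 5.11 and 4.91. Of all pairs of overlapping peaks on members, 646 in 40 members, 51 in 18 members had a q of at most 0.05 on both sides, and KMT2C and CREBBP had 7 each. No such count over pairs on all protein-coding genes is given here, so these counts cannot be set against a background.

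**Figure D2:**
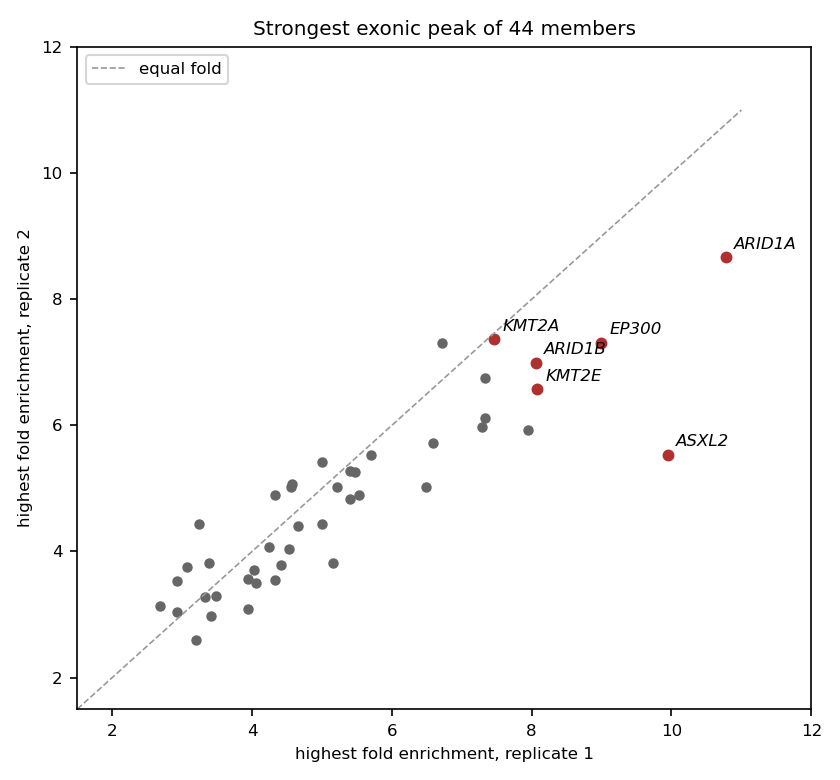
Highest fold enrichment of an exonic peak in replicate 1 (x axis) and replicate 2 (y axis) for the 44 members with a peak in both; the dashed line marks equal folds. The 6 members with the highest mean are in red, and ASXL2 (9.95 and 5.54) lies farthest below the line among them.

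Over the 44 members in that plot, the highest folds of the replicates went together, whether or not they lay at the same site (r = 0.890, rho = 0.911, n = 44 mRNAs). Over the 646 pairs of overlapping peaks, the log2 folds went together less closely (r = 0.263, rho = 0.258). Summits of a pair were a median of 27 nt apart, and 48.9% were within 25 nt. Of the member peaks that passed a q of 0.05, 94.4% and 95.1% were shared with a peak of any q. Over all protein-coding genes these shares were 84.4% and 85.1%.

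Some closely related genes were covered very differently and others differed little in the share covered. Between the most and the least covered gene of each of 17 paralog groups, the means of the covered CDS share differed by at least 40 percentage points in 3 groups and by under 10 in 8. The gap was largest in the ASXL pair, where 96.8% and 92.7% of the ASXL2 CDS and 4.54% and 1.32% of the ASXL1 CDS were covered. KMT2A had 86.8% and 79.2% and KMT2B had 19.99% and 13.7%. BAZ2A had 82.9% and 77.8% and BAZ2B had 32.2% and 26.2%. At the other end, CHD1 had 24.8% and 27.9% and CHD2 had 24.2% and 31.9%, and BAZ1A had 13.0% and 13.9% and BAZ1B had 17.0% and 10.2%. KMT2C and KMT2D differed in peaks per kb (2.995 ± 0.0419 and 1.87 ± 0.240, SD, n = 2) but overlapped in covered share, with 72.7% and 77.5% against 74.0% and 67.3%. No test was made between paralogs, since each value rests on the same 2 libraries.

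**Figure D3:**
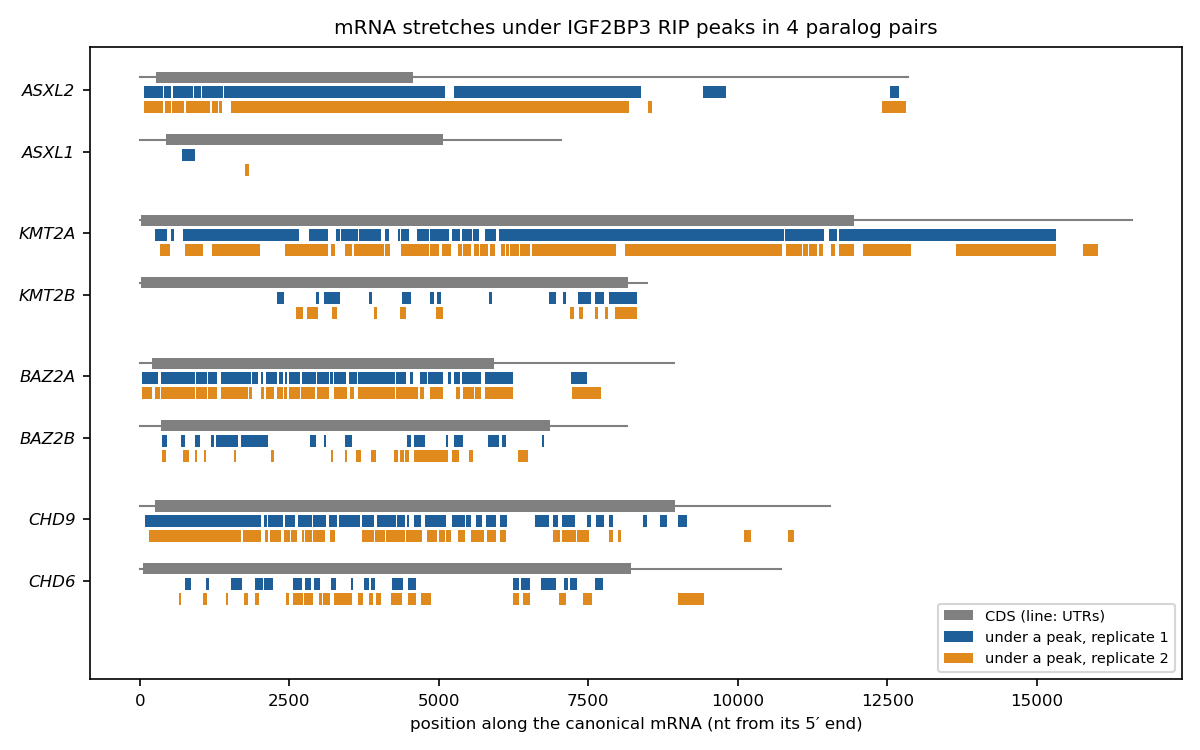
Stretches of the canonical mRNA under a peak in replicate 1 (blue) and replicate 2 (orange) for the highest and lowest member of the 4 paralog groups with the largest gap in covered CDS; the x axis is the position in nt from the 5′ end, thick grey bars are CDS and thin lines are UTRs. ASXL2 and KMT2A are covered along most of the CDS, ASXL1 by 1 short stretch per replicate.

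Counted over peaks of any q, base composition did not order the members by peaks per kb. CDS GC content ranged from 37.3% in SMARCAD1 to 64.7% in SETD1B. Over the 49 members it went with peaks per kb at r = 0.079 and rho = 0.0567, and with the covered share of the CDS at r = 0.263 and rho = 0.267. The denser paralog had the lower GC content in 10 of 17 groups.

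To locate the peaks along the mRNA, each summit was placed in the 5′ UTR, the CDS, the 3′ UTR or a stop codon window reaching 200 nt to each side. The CDS held 91.6% ± 0.451 of member summits (SD, n = 2), where summits spread evenly along the same mRNAs would give 70.6%. The 3′ UTR held 3.34% ± 0.204, where even spread would give 21.9%. The stop codon window held 3.21% ± 0.496 against 4.25% by even spread. On all protein-coding genes, the CDS held 71.6% ± 1.14, the 3′ UTR 16.2% ± 0.893 and the stop codon window 8.47% ± 0.164. Even spread over those genes would give 47.3%, 40.6% and 7.64%. Member summits were thus more often in the CDS and less often near the stop codon or in the 3′ UTR, by more than the spread between replicates, on mRNAs whose CDS also makes up more of the length.

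Counting covered bases in place of summits changed the picture around the stop codon. In members with a peak in both replicates, the stop codon window held 4.80% ± 0.00913 of the covered bases (SD, n = 2) and 4.38% of the length, above even spread rather than below it. Peaks covered 49.7% ± 2.96 of the members' CDS (SD, n = 2), 44.4% ± 2.77 of their stop codon windows, 23.5% ± 0.0639 of their 5′ UTRs and 14.8% ± 1.22 of their 3′ UTRs. Over all 5523 genes with a peak in both replicates, the shares were 30.03% ± 1.49, 28.2% ± 2.72, 14.6% ± 0.947 and 16.9% ± 2.42. In members the CDS was covered somewhat more than the stop codon window in both replicates (51.8% against 46.4%, and 47.6% against 42.4%), and both UTRs less than either. A wide peak over a last exon, such as that of EP300, can count in the stop codon window by its bases and elsewhere by its summit. The wide peak on the last exon of KMT2E did so in replicate 2 only. In replicate 1 its summit lay in the window.

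**Figure D4:**
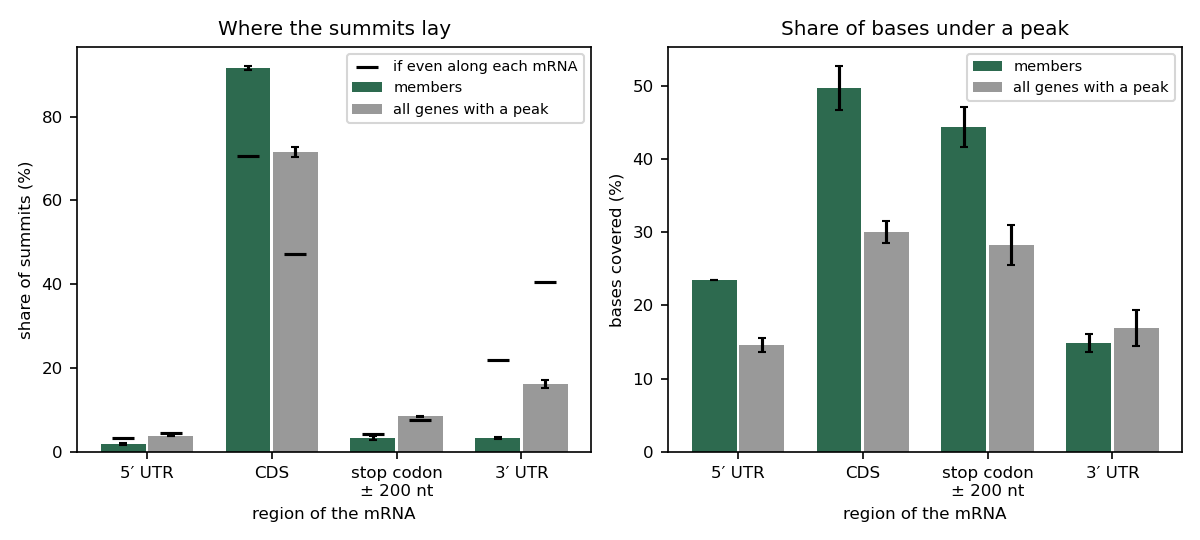
Left, share of summits in each region of the mRNA in members (green) and all protein-coding genes with a peak (grey), with black dashes for an even spread. Right, share of the bases of each region under a peak, for genes with a peak in both replicates. Bars are means and error bars SD of the 2 replicates. The CDS bar of the members is the highest in both panels (91.6% and 49.7%).

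The same 2 measures parted by exon length. In members, summits per kb of CDS fell from 4.73 ± 0.250 (SD, n = 2) in exons under 100 nt to 0.695 ± 0.0276 in exons of at least 1000 nt. The share of CDS bases under a peak was 33.0% ± 2.93 in the shortest class and 57.7% ± 4.13 in the longest. Many peaks followed exon borders, and a long exon was often covered by a single wide peak with 1 summit. In replicate 1 a single peak of 4268 bp covered exon 27 of KMT2A, and the widest member peak of replicate 2 was 6041 bp, on ASXL2. Of the 1451 coding exons of the members, 567 held a summit in both replicates (39.1%) and 936 in at least 1 (64.5%).

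**Figure D5:**
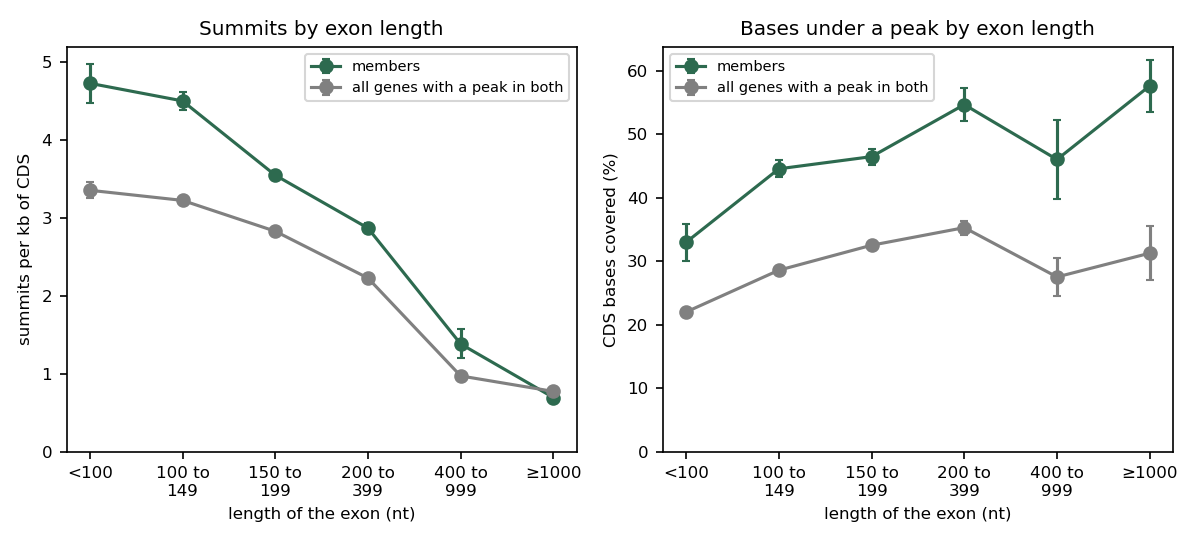
Summits per kb of CDS (left) and share of CDS bases under a peak (right) by exon length in nt, in members (green) and in all genes with a peak in both replicates (grey). Points are means and error bars SD of the 2 replicates. In members the left curve falls from 4.73 to 0.695 and the right curve goes from 33.0% to 57.7%.

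Some long exons nevertheless stood apart from the rest of their mRNA. Of 39 coding exons with at least 1000 nt of CDS, 15 were less covered than the rest of the same CDS in both replicates, 19 were more covered in both, and 5 were neither. SETD2 exon 3, with 4367 nt of CDS, was covered over 23.4% and 11.6%, whereas the rest of the CDS was covered over 66.6% and 56.2%. ATRX exon 9, with 3074 nt, had 0% in both replicates and the rest of its CDS had 25.7% and 23.7%. In KMT2D, exon 11 had 0% and 3.96% while exon 40 had 97.6% and 96.8%. ARID1B exon 1 had 31.9% and 9.99%, against 91.3% and 89.9% for its other exons. EP400 exon 2 had 36.5% and 7.87%, against 70.2% and 68.8%. Conversely, KMT2A exon 27 was covered over 100% and 95.2%, and CHD7 exon 2 over 98.8% and 97.1% against 51.8% and 41.2% for the rest. These exons were singled out after their values had been seen.

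The m6A consensus was looked for on the mRNA strand only, as the letters GGAC and the longer TGGAC, which contains it. In CDS windows that ran 50 nt to either side of member summits, GGAC was present in 29.9% and 31.3%, whereas 33.4% of all windows of that length in the members' CDS held it. TGGAC was present in 11.3% and 13.4%, against 12.6%. Over all genes with a peak, GGAC was in 33.4% and 33.4% of CDS summit windows and in 34.8% of all CDS windows. Neither motif was thus more frequent at member summits than along the same coding sequences by more than the spread between replicates.

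Partners of the same complexes that are not members were counted from a list of 72 genes. Of these, 45 had a peak in both replicates and 18 had none, and 13 had a peak with a q of at most 0.05 in both. Over all protein-coding genes, 28.1% had a peak in both replicates and 4.98% had one with such a q in both. The partners' mRNAs were shorter than those of the members, with a median of 3988 nt. Those named here were chosen after their values had been seen. The large scaffold TRRAP, shared by acetyltransferase complexes, had 59 and 56 peaks, and the COMPASS partners NCOA6 and PAXIP1 had 15 and 15 and 17 and 19. Smaller subunits were mixed within each complex. In COMPASS, WDR5 had 1 and 0 peaks, DPY30 had 2 and 4 and RBBP5 had 9 and 7. In BAF, SMARCB1 had 0 and 0, SMARCD1 7 and 5, and SS18 12 and 13. In NuRD, the complex of CHD4, HDAC1, HDAC2 and MTA2 had 0 and 0, MBD2 7 and 6, and GATAD2A 13 and 11. RUVBL1 and RUVBL2, shared by INO80 and SRCAP complexes, had 0 and 0, while ING3 had 5 and 7.

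Lineage markers gave no way to check the cell type, since the lists record RIP peaks and not expression. Of 7 epithelial markers, CDH1 had 4 and 8 peaks and the others had 0 and 0, including the keratins KRT8, KRT18 and KRT19. The fibroblast markers COL1A1 and COL3A1 each had 0 and 5 peaks, none with a q of at most 0.05, and COL1A2 had none. The 3 leukocyte markers had none.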

How the data were processed

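IGF2BP3 RIP-seq was done in OE-19 cells, and the titles gave each sample's group and replicate number. The study's methods name Tophat2 for mapping to hg38 and MACS2 for calling targets, both with default settings. Per the labels' processing notes the tools were fastp, HISAT2 and MACS2. Versions, and the library used as control, are not given in the sources used here. The labels mention UV fixation, which the methods do not describe for RIP-seq. The smallest −log10 p in the deposited lists was 2.0003 and 2.00226, whereas the MACS2 default is a limit on q. The authors called peaks per sample. The deposited score, −log10 p, −log10 q and fold (a ratio to the local background) are the authors' values. The lists carry no strand and no read counts, so depth is unknown and no interval for counting error could be given.

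Summits were placed in GENCODE release 44 exons and on the canonical mRNA (Python 3.11.15, pandas 2.3.3, numpy 2.4.6, scipy 1.17.1, matplotlib 3.10.9). Peaks on the 24 main chromosomes were used, which left out 13 and 12 on scaffolds. Of the member peaks, 40 and 46 also lay in an exon of another gene. The placement was tested on simulated peaks. No test between groups was made, since only the 2 RIP lists were at hand, and members are not replicates. Values in full were given for the 6 members highest in top fold, in peaks and in peaks per kb, for members with overlapping peaks of a q of at most 0.05 in both replicates, and for members with no peak in a replicate; the covered share of the CDS, and exons named by it, were added later. The members, the partner and marker lists and the paralog groups were chosen with earlier results of these data known. Alternatives were other limits on q and p, other rules to give a peak to a gene, another overlap, another stop codon window, other motif windows and each replicate alone.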

Additional observations from a re-analysis of the deposited data

Results flagged for a closer look

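Summits inside member genes but outside every exon were not part of the counts above. There were 15 such summits in replicate 1 and 8 in replicate 2, against 1426 and 1244 in annotated genes of any type, coding or not. They stood out because they are signal outside the exons on which the report rests. In replicate 1 they lay in 10 members with folds from 1.90 to 4.77, and in replicate 2 in 4 members with folds from 1.87 to 2.93. HELLS had 5 and 3 of them, CHD9 2 and 3. Of the summits, 6 and 4 were on shared peaks. A q of at most 0.05 was reached once, in CREBBP in replicate 1 (chr16:3777599-3777684, fold 4.77, q = 0.000510), with no overlapping peak in replicate 2.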

How the results depend on the processing

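Of 49 values recomputed under the other settings, 22 stayed within the spread between replicates (counts within 1.5 times) and 27 moved. The stop codon share turned from below even spread to above it when covered bases were counted, as given below. The choices of any overlap with an exon, a summit anywhere in the gene and a summit in exons of 1 gene only left the 5 counts and medians they bear on within those limits.

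Keeping only peaks with a q of at most 0.05 in both lists left 23 members with a peak in both replicates in place of 44, and 142.5 member peaks on average in place of 829. It gave 36.5% shared in place of 75.9%, a median highest fold of 5.57 in place of 4.74 over members with a peak, and a median density over all 49 members of 0.0626 per kb in place of 1.95. The CDS then held 95.0% of summits and the 3′ UTR 0.316%, GC went with density at r = 0.200, and GGAC was in 29.8% of the windows over the whole mRNA in place of 30.7%. With p of at most 1e-05 there were 186 peaks, 34.8% shared, a median highest fold of 5.23 and a median density of 0.271, with 95.0% in the CDS, 0.263% in the 3′ UTR and r = 0.138. The share of peaks that overlapped by 50% of both was 56.8%.

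A stop codon window of 100 nt gave 93.1% in the CDS, 3.77% in the 3′ UTR and 1.30% in the window. Peaks shared by both replicates gave 92.5% in the CDS and 1.95% in the 3′ UTR. Counting covered bases, an alternative added with the values already known, gave 84.7% in the CDS, 8.56% in the 3′ UTR and 4.80% in the stop codon window, in place of 91.6%, 3.34% and 3.21%. GGAC was in 51.7% of windows of 100 nt on either side, and TGGAC in 12.1% of the shorter windows.

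With each replicate alone, members with a peak ranged from 44 to 46, member peaks from 826 to 832, the shared share from 74.8% to 77.0%, the median highest fold from 4.61 to 4.87 and the median density from 1.87 to 2.04. The CDS share ranged from 91.3% to 91.9%, the 3′ UTR share from 3.19% to 3.48%, the stop codon share from 2.86% to 3.56%, the GC correlation from 0.0435 to 0.113 and GGAC from 30.1% to 31.2%. No paired analysis was possible because the input samples were not analysed here and no result comes from a test. With 2 replicates, unknown depth and lists without strand, small differences between members cannot be resolved.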
